A study of Mus musculus with 6 samples.

Results

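The genes described here encode semaphorins, which are guidance ligands, and plexins and neuropilins, which are their receptors. The list holds 31 mouse genes, 20 semaphorins, 9 plexins and 2 neuropilins, taken by family membership. Of these, 29 genes among the 30714 measured had a probe set annotated with that gene's symbol alone, 19 semaphorins and 10 receptors. The probe sets annotated with Sema4a and Nrp1 carry a microRNA symbol as well, so neither gene is given a value. Expression was measured on Affymetrix arrays in podocytes, the epithelial cells that wrap the capillaries of the kidney filter, grown as conditionally immortalized mouse lines and differentiated over 10 days on a surface of type I collagen. A Wildtype line and an NCK1/2 knockout line, labelled as a knockout of the paralogous adaptors Nck1 and Nck2, gave 3 arrays each. Each genotype is represented by a single line, so genotype and line cannot be told apart. The replicates of a line are called independent in the series description, but separate cultures are not stated. The p-values set each difference against the spread between these samples, estimated in part from all genes, and that spread may be technical.

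Semaphorins were found as cues that steer growing axons and act on many other cell types. Class 3 semaphorins are secreted and mostly bind a neuropilin, which holds the ligand while a plexin of class A or D carries the signal. Classes 4 to 7 are tied to the membrane and mostly bind plexins directly. The inner part of a plexin acts on small GTPases, and activation usually loosens adhesion and takes down actin filaments. Nck1 and Nck2 link phosphorylated receptors, nephrin among them, to actin assembly. Podocytes are known to make Sema3a, and an excess of it is known to disturb the slit diaphragm.

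The arrays gave log2 probe set intensities, with array medians over genes from 7.08 to 7.22. Between arrays of a line the Pearson r across genes was 0.993 to 0.997, and between lines it was 0.978 to 0.985. Precision is limited by the number of arrays. The array's 23 background probe sets had means from 2.33 to 7.78, with a median of 4.48. A mean at or below the highest, 7.78, is said here to lie within the background range. This does not show that a gene is silent, since 62.9% of all genes had a mean over the 6 arrays at or below that value. Nck1 fell from 8.63 ± 0.10 to 8.12 ± 0.06 (mean log2 intensity ± SD, n = 3 each; limma adjusted p = 0.00391), a 1.43-fold change that left it above the background range in knockout, and Nck2 was at 7.48 ± 0.13 and 7.24 ± 0.04 (adjusted p = 0.0941) and did not leave the background range. Where these probe sets lie with respect to the deletions is not known, so the values do not check the labels. Of 12 podocyte markers 10 were measured, and 4 of them, Nphs1, Wt1, Ptpro and Tcf21, lay within the background range in both lines, while Synpo, Podxl, Cd2ap, Actn4, Nes and Lmx1b were above it. Of the 10, Actn4, an actin crosslinker, rose by 0.61 (limma adjusted p = 0.000349) and the others did not pass. The summed linear intensity of the 10 was 7296 to 7706 in wildtype and 9047 to 9407 in knockout. Actn4, the brightest of the 10 in each line (11.36 and 11.97), weighs most in this sum, so the sum does not show a general rise of podocyte markers.

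The knockout line differed from wildtype in 12 of the 29 measured genes, 3 higher and 9 lower (limma, Benjamini-Hochberg adjusted p under 0.05 over all genes). The call was made for 12% of all 30714 genes, 5.06% higher and 6.9% lower, against 41.4% of these 29. Among protein-coding genes 16% were called, and 28.9% of protein-coding genes with a group mean above the background range. The 5 changes of at least 2-fold were all in semaphorins, Sema3d and Sema3a upward and Sema3e, Sema3c and Sema5a downward. By comparison, 1.67% of all genes changed by that much. So did 403 of the 8957 protein-coding genes with a group mean above the background range. No receptor changed by 2-fold. Of the ligands, 2 of 19 rose and 7 fell. Of the receptors, 1 of 10 rose and 2 fell. The median log2 difference, knockout minus wildtype, was -0.08 for ligands, 0.04 for receptors and 0.01 for all genes. The median size of the difference, without its sign, was 0.16, 0.11 and 0.08 in that order. The 3 values of each line did not overlap for 15 of the 29 genes. No overlap was seen for 27.4% of all genes. Among the 8957 protein-coding genes with a group mean above the background range it was seen for 4956. Of the 29, 9 lay within that range in both lines.

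**Figure D1:**
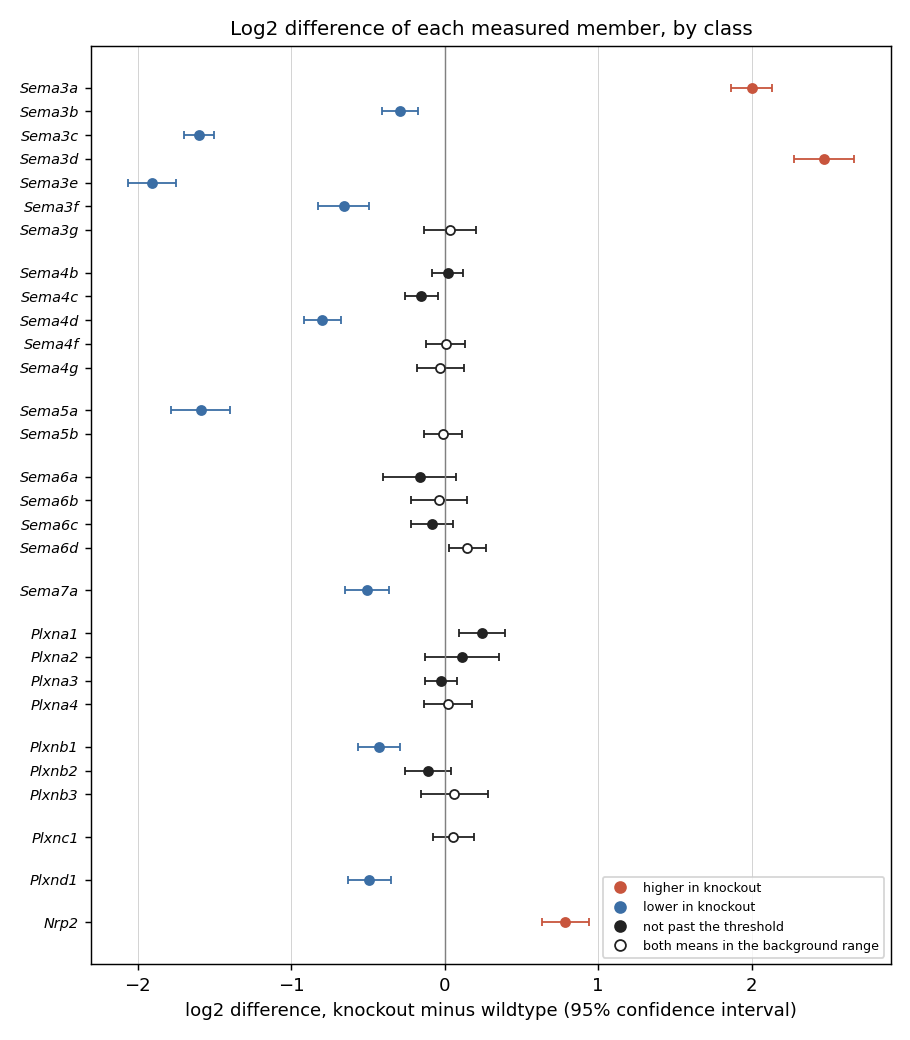
Log2 difference (knockout minus wildtype, x axis) of each of the 29 measured genes, grouped by class, with 95% confidence intervals from limma. Red and blue points are genes past the threshold, black points are not, and open points have both means within the background range. The 5 changes of at least 2-fold lie in class 3 and class 5 semaphorins.

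The secreted class 3 semaphorins gave 6 of the 12 changes, with 2 rising, 4 falling and 1 not passing. That is 85.7% of the 7 called, against 12% of all genes and 28.9% of protein-coding genes above the background range. Of the 7, 1 lay within that range in both lines, so the 85.7% cannot be set directly beside the 28.9%. Sema3a, the collapsin that signals through neuropilin 1 and class A plexins, was at 10.33, 10.39 and 10.26 in the 3 wildtype arrays and at 12.36, 12.36 and 12.26 in the 3 knockout arrays (log2 intensity). Every knockout value was above every wildtype value, and the rise of 2.00 on the log2 scale (SE 0.06, limma adjusted p = 1.27e-05) is a 4.0-fold change. Sema3d, a relative known from vascular and cardiac patterning, was at 5.88, 5.66 and 5.74 in wildtype and at 8.22, 8.34 and 8.13 in knockout. It rose by 2.47 (SE 0.08, limma adjusted p = 1.97e-05), and since its wildtype mean of 5.76 lay within the background range, the 5.55-fold change has only an uncertain starting level.

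Sema3e, which binds plexin D1 without a neuropilin, went the other way. Its values were 10.85, 11.002 and 10.86 in wildtype and 8.98, 9.07 and 8.93 in knockout, a log2 difference of -1.91 (SE 0.06, limma adjusted p = 2.06e-05) or 3.75-fold. Sema3c, a ligand of both neuropilins that is known from cardiac outflow tract formation, was at 12.59, 12.61 and 12.59 in wildtype and at 10.99, 11.01 and 10.98 in knockout. Its arrays were the tightest of the class, with an SD of 0.01 in each line, and the log2 difference was -1.60 (SE 0.04, limma adjusted p = 8.77e-06). All wildtype values of both genes stood above all knockout values, and both lines were above the background range.

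Sema3f, a repellent that binds neuropilin 2, was at 10.47, 10.53 and 10.36 in wildtype and at 9.78, 9.71 and 9.89 in knockout. It fell by 0.66 on the log2 scale (SE 0.07, limma adjusted p = 0.00189), with no overlap. Sema3b, which was first studied as a candidate tumour suppressor, showed the smallest change of the 12, from 8.08, 8.03 and 7.99 to 7.74, 7.71 and 7.79. Its log2 difference of -0.29 (SE 0.05, limma adjusted p = 0.0121) lost its call when knockout replicate 1 was left out (adjusted p = 0.0598) and when knockout replicate 2 was (0.0588), and its knockout mean lay within the background range. Sema3g, known from endothelium and podocytes, was within the background range in both lines, at 7.26 ± 0.12 and 7.29 ± 0.04, a difference of 0.03 (95% confidence interval -0.14 to 0.20).

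**Figure D2:**
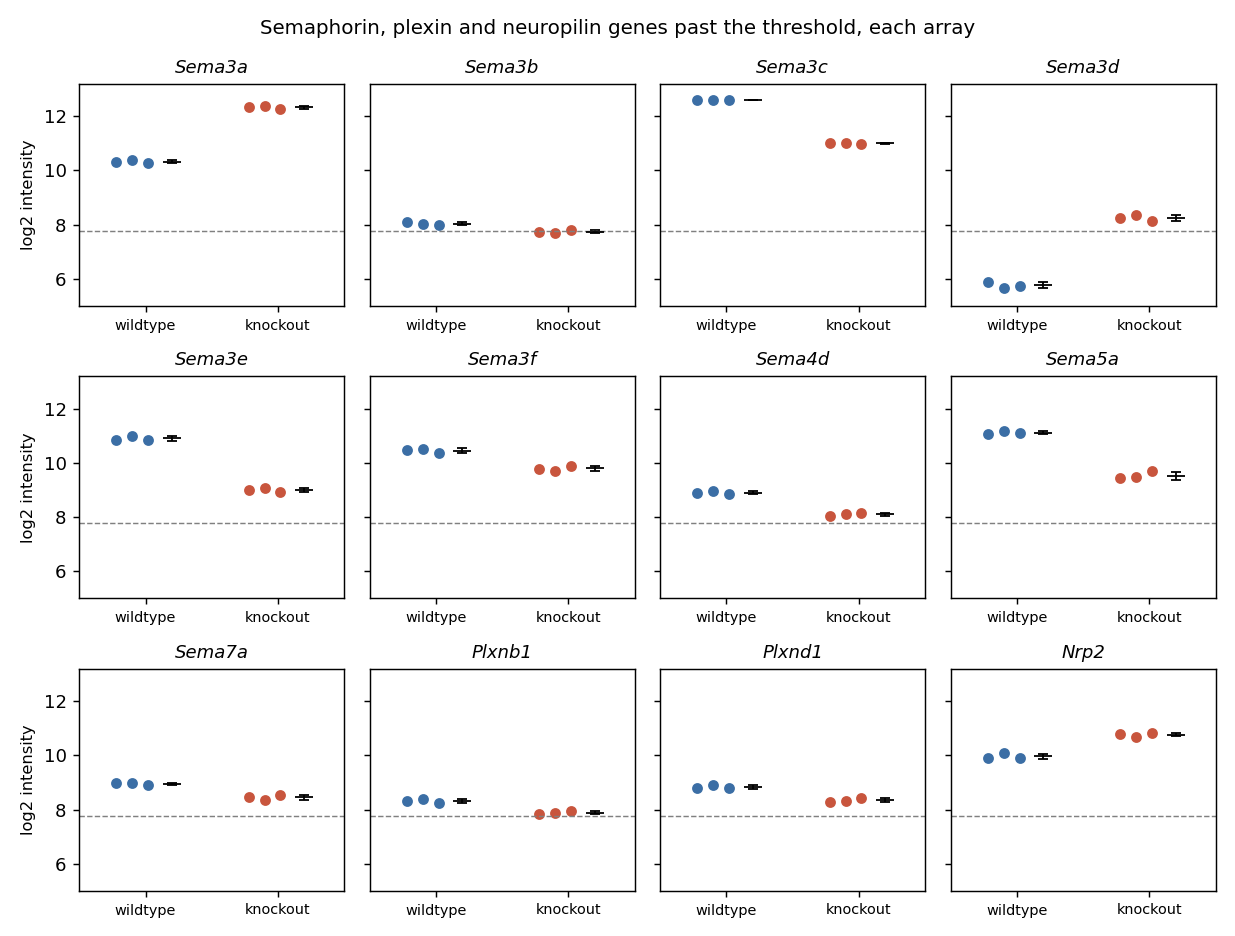
Log2 intensity (y axis) of the 12 genes past the threshold in each of the 3 wildtype (blue) and 3 knockout (red) arrays, with the mean ± SD in black beside the points and the top of the background range, 7.78, as a dashed line. In every panel the 3 knockout points lie wholly above or wholly below the 3 wildtype points.

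The 4 class 3 genes with the largest differences follow each other on chromosome 5, with other genes between them, in the order Sema3d, Sema3a, Sema3e and Sema3c in the GRCm38.p6 gene table. The first pair rose and the second pair fell. From Sema3d to Sema3c there were 28 measured genes, 24 of them outside the family, and 20 of those 24 lay within the background range in both lines. Only Cacna2d1, a calcium channel subunit gene (8.46 ± 0.31 to 5.83 ± 0.10, log2 difference -2.63, SE 0.15, limma adjusted p = 0.000173), and the pseudogene Gm10108 (-0.57, SE 0.07, limma adjusted p = 0.00334) passed the threshold among the 24, both lower, and they were singled out after their values were seen. The knockout mean of Cacna2d1 lay within the background range, so the size of its fall is uncertain. The value of a pseudogene is uncertain, since it can share probes with its parent gene. Over all 1670 measured genes of the chromosome 13.4% were called. Sema3a and Sema3e, which differ in sign, have 3 measured genes between them, and none of the 3 passed.

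**Figure D3:**
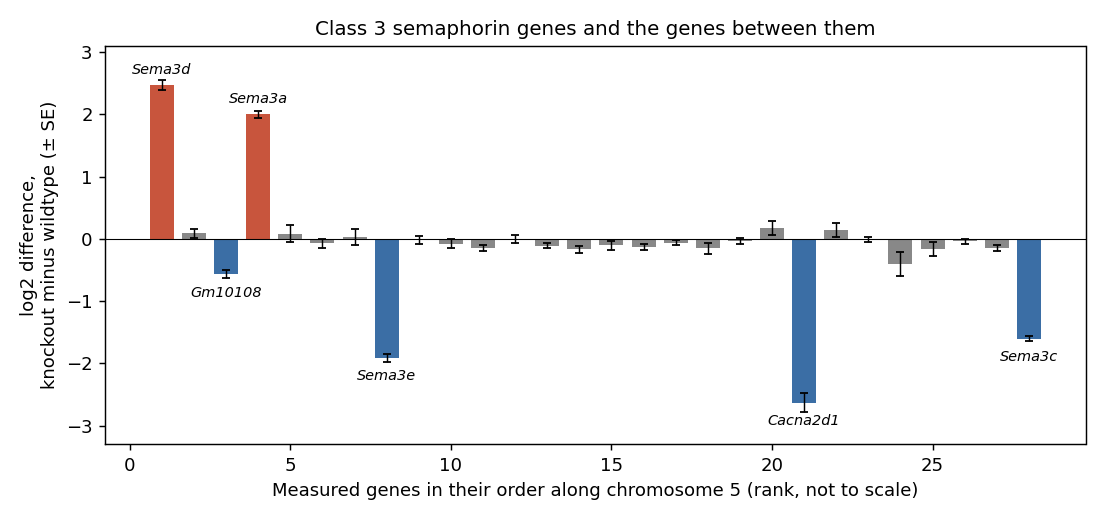
Log2 difference (knockout minus wildtype, bars, ± SE) of the 28 measured genes from Sema3d to Sema3c in their order along chromosome 5, drawn by rank and not to scale. Red bars rose, blue bars fell and grey bars did not pass. Sema3d and Sema3a point up, and Sema3e, Cacna2d1 and Sema3c point down.

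The promoter windows of these 4 genes are shown because they hold the largest differences of their class, in opposite directions. Each window runs from 250 bases before to 50 after a start annotated by RefSeq on GRCm38.p6, on the plus strand, and is printed 5′ to 3′ with CG dinucleotides in capitals. The windows are chr5:12382916-12383215 for Sema3d, chr5:13396534-13396833 for Sema3a, chr5:14025026-14025325 for Sema3e and chr5:17574566-17574865 for Sema3c.
Sema3d: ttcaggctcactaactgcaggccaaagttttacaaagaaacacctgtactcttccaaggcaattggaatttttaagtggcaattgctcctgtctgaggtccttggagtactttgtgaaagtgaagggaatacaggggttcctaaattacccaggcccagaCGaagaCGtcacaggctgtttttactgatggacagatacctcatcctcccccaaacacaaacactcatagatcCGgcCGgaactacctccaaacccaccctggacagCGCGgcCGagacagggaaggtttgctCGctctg
Sema3a: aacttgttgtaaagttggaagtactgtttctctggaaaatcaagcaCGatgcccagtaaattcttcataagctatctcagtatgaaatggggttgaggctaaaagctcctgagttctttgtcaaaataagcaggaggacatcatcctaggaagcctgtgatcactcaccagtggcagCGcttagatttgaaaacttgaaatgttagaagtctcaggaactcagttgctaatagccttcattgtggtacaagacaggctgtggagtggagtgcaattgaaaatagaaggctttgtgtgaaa
Sema3e: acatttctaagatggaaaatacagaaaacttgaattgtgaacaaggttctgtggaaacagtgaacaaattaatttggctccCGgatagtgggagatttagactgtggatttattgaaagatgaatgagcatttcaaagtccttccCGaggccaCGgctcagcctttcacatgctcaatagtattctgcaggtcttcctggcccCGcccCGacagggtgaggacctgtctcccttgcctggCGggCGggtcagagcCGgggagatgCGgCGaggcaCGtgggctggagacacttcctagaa
Sema3c: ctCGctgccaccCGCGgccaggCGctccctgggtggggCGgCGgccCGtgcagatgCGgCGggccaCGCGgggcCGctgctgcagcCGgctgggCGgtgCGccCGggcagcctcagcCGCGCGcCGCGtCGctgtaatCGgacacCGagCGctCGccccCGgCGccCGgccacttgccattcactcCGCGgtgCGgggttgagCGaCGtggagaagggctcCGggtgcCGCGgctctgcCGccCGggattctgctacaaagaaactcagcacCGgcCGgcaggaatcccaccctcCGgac
The windows differ widely in base composition. The Sema3a window holds 2 CG dinucleotides at 41.3% G and C, the Sema3d window 8 at 49.7%, the Sema3e window 11 at 50.7% and the Sema3c window 42 at 75.7%, where the median over 32817 mouse windows was 7. Of all windows, 43.4% hold 10 or more. Among the other members that changed, the window of Nrp2, which rose, holds 37. Of those that fell, the 3 windows of Sema4d hold 2 to 3, those of Sema5a, Sema7a and Plxnd1 23 each and that of Plxnb1 36. No window was available for Sema3b and Sema3f. High and low counts are found with either direction, and a link between count and direction was not tested. The Sp and KLF family motif GGGCGG, searched on both strands, matched 3 times in the Sema3c window and 2 times in the Sema3e window, and 35.6% of all windows hold it. None of the 4 windows held TATAAA (13.6% of all windows), the TEAD motif GGAATG (14.7%), the AP-1 motif TGANTCA (7.81%), the cyclic AMP response element TGACGTCA (1.79%) or a CArG box (1.63%), the site of the serum response factor. No other searched motif matched, so no match overlaps one of another kind. The arrays do not tell which start of a gene was used.

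Of 12 measured membrane-bound semaphorins 3 fell, none rose and 9 did not pass, a share of 25% called. The share was 12% of all genes and 28.9% of protein-coding genes above the background range. Of the 12, 5 lay within that range in both lines. Sema5a, a ligand with thrombospondin repeats in its outer part, was at 11.06, 11.17 and 11.10 in wildtype and at 9.43, 9.46 and 9.68 in knockout. Among the 29 genes this was the largest change outside class 3, a log2 difference of -1.59 (SE 0.08, limma adjusted p = 0.000101) or 3.01-fold, with no overlap. Its paralog Sema5b lay within the background range in both lines and differed by -0.01 (95% confidence interval -0.14 to 0.11).

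Sema4d, the ligand of plexin B1 also known from lymphocytes as CD100, was at 8.90, 8.95 and 8.87 in wildtype and at 8.05, 8.11 and 8.16 in knockout. It fell by 0.80 on the log2 scale (SE 0.05, limma adjusted p = 0.000241), a 1.74-fold change with the lines fully apart. None of the other 4 measured class 4 genes passed. Sema4c, a ligand of plexin B2, was at 8.003, 8.02 and 7.94 against 7.81, 7.84 and 7.84, lower in every knockout array but short of the threshold (-0.15, SE 0.04, limma adjusted p = 0.0843). It passed when only genes at or above the median level were tested (adjusted p = 0.0434). Sema4b was at 8.64 ± 0.04 and 8.66 ± 0.01, a difference of 0.02 (95% confidence interval -0.08 to 0.12). Sema4f and Sema4g lay within the background range in both lines, with differences of 0.01 and -0.03.

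Sema7a, which is held in the membrane by a lipid anchor and binds plexin C1 and integrins, was at 8.96, 8.99 and 8.91 in wildtype and at 8.45, 8.36 and 8.54 in knockout. It fell by 0.51 (SE 0.06, limma adjusted p = 0.00299). Class 6, whose members bind class A plexins, had no gene past the threshold. Sema6a, at 7.98, 8.20 and 7.98 against 7.72, 7.98 and 7.98, overlapped between lines and differed by -0.16 (95% confidence interval -0.40 to 0.08), and Sema6c by -0.08 (-0.22 to 0.05). Sema6b and Sema6d stayed within the background range in either line. The 3 Sema6d values were higher in knockout than any in wildtype, by 0.15 on average, without passing (limma adjusted p = 0.131).

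Of the receptors, Nrp2 rose, and of the 9 plexins 2 fell, none rose and 7 did not pass. That is 22.2% of the plexins called, against 12% of all genes and 28.9% of protein-coding genes above the background range. Nrp2, the neuropilin that binds Sema3c and Sema3f and also takes part in lymphatic growth factor signalling, was at 9.92, 10.08 and 9.92 in wildtype and at 10.77, 10.69 and 10.81 in knockout. The lines did not overlap, and the rise of 0.79 on the log2 scale (SE 0.06, limma adjusted p = 0.000662) is 1.72-fold. Plxnd1, the receptor of Sema3e known from vessel patterning, was at 8.79, 8.90 and 8.81 in wildtype and at 8.29, 8.31 and 8.42 in knockout. It fell by 0.49 (SE 0.06, limma adjusted p = 0.003). Plxnb1, the receptor of Sema4d that also associates with the receptor kinases Met and ErbB2, was at 8.30, 8.38 and 8.25 in wildtype and at 7.83, 7.88 and 7.94 in knockout. It fell by 0.43 (SE 0.06, limma adjusted p = 0.00431), again with no overlap.

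Plxna1, a class A plexin that works with neuropilins, was at 11.11, 11.16 and 11.09 in wildtype and at 11.35, 11.27 and 11.47 in knockout. Each knockout value exceeded each wildtype value, yet the difference of 0.24 (SE 0.06, limma adjusted p = 0.0539) narrowly missed the threshold. It passed with only genes at or above the median level tested (adjusted p = 0.0272), with quantile normalization applied again (adjusted p = 0.0268) and with chromosome medians taken off (0.32, adjusted p = 0.02). Plxna2, a receptor of class 6 semaphorins, differed by 0.11 (95% confidence interval -0.13 to 0.36) and Plxnb2, which is widely expressed in epithelia, by -0.11 (-0.26 to 0.04), both with overlapping lines. Plxna4, Plxnb3 and Plxnc1 lay within the background range in both lines, with differences of 0.02, 0.06 and 0.06.

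The class A receptor Plxna3 is X-linked, as is Plxnb3, and the brighter protein-coding genes of the X chromosome had a median log2 difference of -0.21. Plxna3 was at 8.14, 8.22 and 8.14 in wildtype and at 8.14, 8.14 and 8.15 in knockout, a difference of -0.02 (limma adjusted p = 0.878) with overlapping lines. Relative to the X chromosome median it was 0.19 higher (adjusted p = 0.0376). On chromosome 9, singled out after its values were seen, the 4 measured members of these families, Sema3b, Sema3f, Sema7a and Plxnb1, all fell. Of the 1539 genes of chromosome 9, with those in the background range counted, 5.39% fell and 6.76% rose. Over all chromosomes, 1518 of the 8957 protein-coding genes with a group mean above the background range fell. The median difference of chromosome 9 was 0.02. Sema3b and Sema3f lie close together there, with 3 measured genes between them.

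Set beside their known receptors, some ligands moved with the receptor and others did not. Sema3e and Plxnd1 both fell (-1.91 and -0.49), as did Sema4d and Plxnb1 (-0.80 and -0.43). Sema3f and Sema3c fell (-0.66 and -1.60) while their receptor Nrp2 rose (0.79), and Plxnd1, a plexin through which Sema3c also signals, fell (-0.49). Sema7a fell (-0.51) while its plexin, Plxnc1, was within the background range. The integrin chain gene Itgb1, among the other semaphorin receptors listed, was at 12.81 and 12.76 and did not pass. Sema5a fell (-1.59) while Plxnb3, a receptor reported for it, was within the background range. Sema3a rose (2.00) while of the class A plexins that carry its signal none passed, with differences from -0.02 to 0.24, and Nrp1, which binds it, is not given here. Sema3d, which rose most (2.47), is likewise known as a ligand of Nrp1, so it is set beside no neuropilin here.

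Genes that act with or below these receptors were read from a list of 57, of which 53 were measured. Of these, 13 rose, 5 fell and 35 did not pass, a share of 34.0% called, with a median difference of 0.02. The share called was 12% of all genes, 16% of protein-coding genes and 28.9% of protein-coding genes above the background range. Of the 53, 14 lay within the background range in both lines, so the 34.0% cannot be set directly beside the 28.9%. Among 13 coreceptors and other semaphorin receptors 1 rose and 3 fell. Lrp1, a large endocytic receptor gene, rose from 8.88 ± 0.11 to 10.49 ± 0.10, a log2 difference of 1.62 (SE 0.08). Ptk7, a pseudokinase that associates with class A plexins, changed by -1.16 (SE 0.06) to a mean within the background range. Met, the receptor kinase partner of plexin B1, changed by -0.62 (SE 0.07), and Erbb2, another such partner chosen after its value was seen, by -0.50 (SE 0.07).

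Of 15 small GTPases and their regulators 6 rose, 1 fell and 8 did not pass, 46.7% called against the same 12% and 28.9%. Rras, a Ras relative on which the plexin GAP domain acts, rose by 0.73 (SE 0.11), and Rnd3, a small GTPase, by 0.63 (SE 0.08). Farp1, an exchange factor linked to class A plexins, rose by 0.75 (SE 0.09). The gene that fell was the Rac exchange factor Tiam1 (-0.40, SE 0.06), chosen after its value was seen. Of 5 genes of the MICAL family, whose founding members oxidize actin, Mical2 alone passed and rose by 0.77 (SE 0.07). Of 5 collapsin response mediator genes 2 rose, Dpysl3 by 0.50 and Dpysl2 by 0.43, both chosen after their values were seen. Of 11 kinases and actin regulators 3 rose, led by the actin elongation factor gene Enah at 0.70 (SE 0.06). Of 4 adaptors, Gipc1, which binds neuropilins and plexin D1, changed by -0.23 (SE 0.04), also chosen after its value was seen. The limma adjusted p of the genes named in these 2 paragraphs ran from 8.11e-05 to 0.0163.

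**Figure D4:**
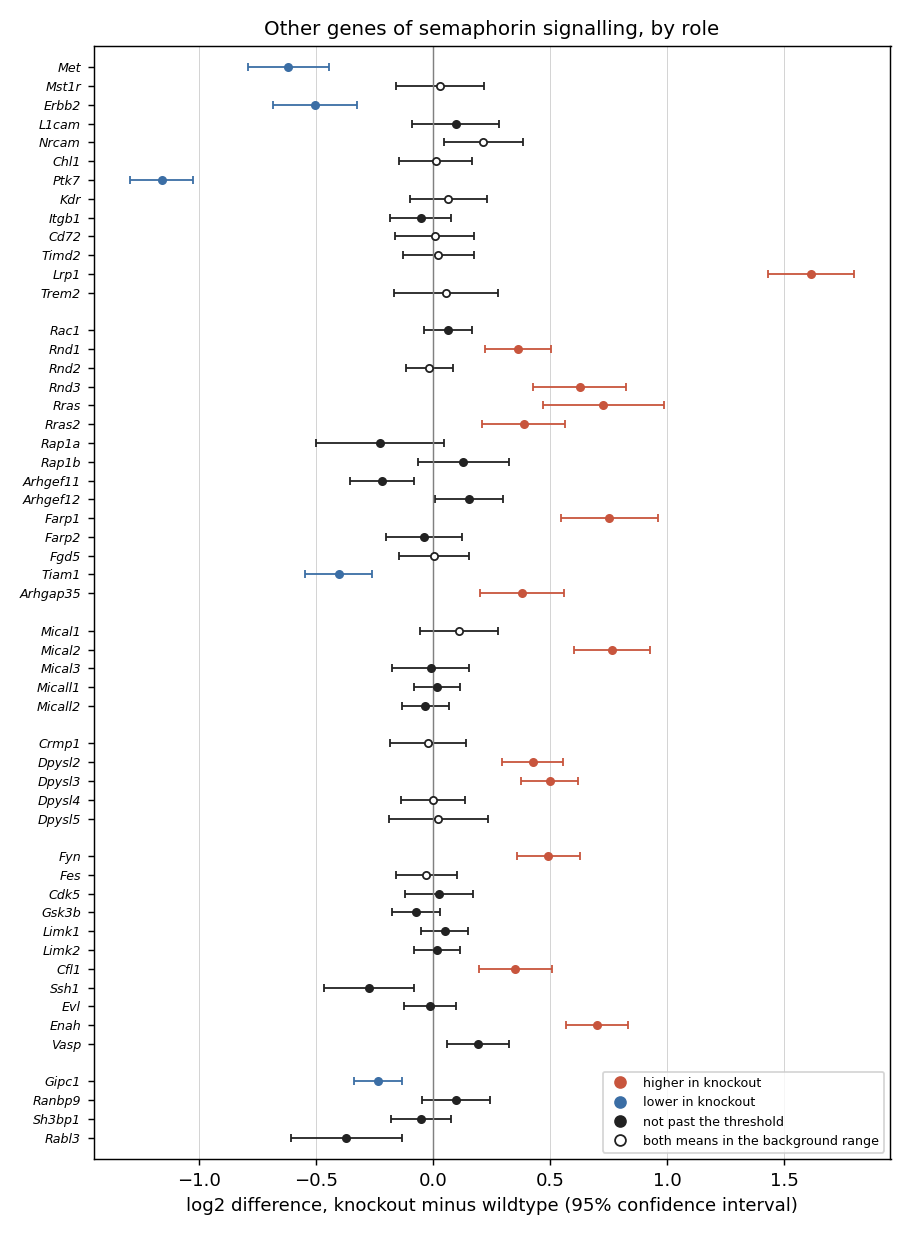
Log2 difference (knockout minus wildtype, x axis) of the 53 measured genes that act with semaphorin receptors, grouped by role, with 95% confidence intervals from limma. Red points rose, blue points fell, black points did not pass, and open points have both means within the background range. Most points past the threshold lie to the right, with Lrp1 highest at 1.62 and Ptk7 lowest at -1.16.

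Some markers of other cell types changed as well, but in every list most did not pass. Many of those lay within the background range, where a change could be missed. The call was made for 12% of all genes and 28.9% of protein-coding genes above the background range. Of 5 measured fibroblast markers 2 rose, Dcn by 4.33 and Col1a1 by 3.03, and the summed linear intensity of the 5 was 768 to 857 in wildtype and 4917 to 5355 in knockout, while Lum, Col1a2 and Thy1 lay within the background range in both lines and Dcn in wildtype. Of 7 measured mesangial and pericyte markers 2 rose, Acta2 by 2.83 and Pdgfrb by 2.36, and Mcam fell by 0.22, with sums of 1780 to 2012 and 8826 to 9700, while Itga8, Cspg4, Rgs5, Des and Mcam lay within the background range in both lines and Pdgfrb in wildtype. Of 10 tubule markers 4 fell, Aqp1 (-3.50), Cdh16 (-1.50), Pax8 (-0.73) and Lrp2 (-0.36), with sums of 16937 to 18142 and 6594 to 6896. Slc12a1, Slc12a3, Umod, Cdh1 and Epcam lay within the background range in both lines and did not pass. Aqp2, just above that range at 7.89 and 7.92, did not pass either. Of 5 parietal epithelium markers 2 fell, Cldn1 and Pax8, with sums of 5731 to 6205 and 4141 to 4567. Pax2, Krt8 and Krt18 did not pass, Krt8 and Krt18 within the background range in both lines, and Pax8 is on the tubule list too. The sizes of changes that start or end within the background range are uncertain. The part of any of these shifts in the differences above was not tested. All 10 endothelial markers lay within the background range in both lines and none passed, with sums of 922 to 1077 and 1008 to 1031. Of 6 leukocyte markers Cd68 rose and Csf1r fell, with Ptprc, Adgre1, Itgam and Cd3e within the background range and sums of 1266 to 1363 and 929 to 1102. Of 4 neuron and Schwann cell markers Tubb3 rose by 0.56 from a wildtype mean within the background range, with sums of 550 to 651 and 659 to 681. In bulk samples, fewer cells of a type and less RNA per cell cannot be told apart.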

How the data were processed

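Total RNA of 3 wildtype and 3 knockout samples was hybridized to Affymetrix arrays. The authors deposited log2 intensities per probe set, made with affy 1.44.0 and RMA according to the submitters' processing notes. The probe definition file and any filter were not given there. RMA's median polish can give arrays identical values, as in the knockout arrays of Sema4g, Sema5b and Sema6b, which understates the spread. Of 72688 probe sets, 31261 named 1 gene after synonyms were merged through a GRCm38.p6 gene table, 1489 named several and were left out, and the brightest was kept for each of 30714 genes. Lines were compared by limma 3.58.1 in R 4.3.3 (lmFit, eBayes, two-sided, no covariate or filter, Benjamini-Hochberg at 0.05), a step tested on simulated data. The members and lists were chosen with earlier results of these data known. All 31 genes were to be named, with full values for those past the threshold, and up to 8 of the signalling list by size. Alternatives covered left-out arrays, filters, normalization, variance models, probe set choice and chromosome medians.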

Additional observations from a re-analysis of the deposited data

How the results depend on the processing

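Of the 12 genes past the threshold, 11 kept their direction and call under every alternative in which they were tested, and Sema3b lost its call without knockout replicate 1 or 2 and at an adjusted p under 0.01. The count of 12 was 11 to 12 when an array was left out, with 3 higher and 8 to 9 lower, and the ligands numbered 8 to 9. Genes that rose numbered 5 with array weights and 5 with chromosome medians taken off, against 3. Receptors that changed numbered 5 with chromosome medians taken off, against 3, and receptors that rose numbered 2 with only genes at or above the median level, 2 with quantile normalization again, 2 with array weights and 3 with chromosome medians taken off, against 1. Ligands that rose numbered 1 with only genes at or above the median level, since Sema3d was then not tested. Signalling genes that fell numbered 8 with that filter and 8 with array weights, against 5; those that changed ran from 14 to 17 over the left-out arrays, 10 to 13 higher and 4 to 6 lower. Over all genes, 2080 to 3389 changed when an array was left out (878 to 1450 higher, 1198 to 2010 lower), 10178 with array weights (5114 higher, 5064 lower), 1949 at an adjusted p under 0.01 (851 higher, 1098 lower), and 2366 were higher with chromosome medians taken off. The array weights gave wildtype array 3 a weight of 54.7, so calls made under them alone are not relied on.

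Direction reversed only among genes that did not pass. With an array left out, Sema3g ran from -0.027 to 0.095, Sema4b from -0.00098 to 0.033, Sema4f from -0.025 to 0.048, Sema4g from -0.075 to 0.034, Sema5b from -0.045 to 0.027, Sema6b from -0.097 to 0.043, Plxna3 from -0.035 to 0.0022, Plxna4 from -0.035 to 0.074 and Plxnb3 from -0.035 to 0.14. With chromosome medians taken off, Sema3g was at -0.011, Sema4b at -0.0049, Sema5b at 0.11 and Plxna3 at 0.19. With quantile normalization again, Sema4f was at -0.0015, Plxna3 at 0.0085 and Plxna4 at -0.00040, and with array weights Plxna3 was at 7.9e-05. The cause was not tested. With the replicate number as a block, 12 genes changed, 3 higher and 9 lower, and 3766 over all genes. Deviations of same-numbered arrays correlated at 0.35, 0.28 and 0.04, and those of the other pairs at -0.34 to 0.05. Each wildtype array correlated best with the knockout array of its own number. Knockout array 3, however, correlated best with wildtype array 2 (0.05), so the numbers were not taken to pair the samples in the main comparison.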
